A study of Mus musculus with 6 samples.

Results

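Claudins, cadherins, desmosomal proteins, connexins and the proteins that anchor them hold the cells of a tubule together, and their genes were followed in mouse renal cortex (C57BL/6, an inbred strain). A gene was a member when its name matched the family names listed here. Tight junction names were the claudins (Cldn), zonula occludens proteins (Tjp), occludin and its relatives (Ocln, Marveld), cingulin (Cgn) and junctional adhesion molecules (F11r, Jam2, Jam3). Adhesion names were the cadherins (Cdh), alpha and delta catenins (Ctnna, Ctnnd), nectins and desmosomal proteins (Dsp, Dsg, Dsc, Jup, Pkp). The others were connexins (Gja to Gje) and Par polarity proteins (Pard3, Pard6). This gave 116 of the 22040 genes listed. Membership rests on the gene name, but the families were chosen with earlier results of these data known. RNA-seq counts came from 3 sham libraries and from 3 injured libraries (IR24h) taken after both renal pedicles had been clamped for 30 min and reperfused for 24 h, a model of acute kidney injury. Where 3 values are given for a group, they stand in the order of libraries 1, 2 and 3. The labels mark all libraries as WT (wild type) and give the strain, the tissue and the treatment. The sources used here do not give age, sex, what the sham surgery involved, or whether each library is a separate mouse. The p-values therefore measure the spread between these libraries, which may be technical.

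Tight junctions seal the space between neighbouring tubule cells near their apical side, and the claudins in them decide which ions may pass. Adherens junctions and desmosomes below them carry the mechanical load, through cadherins that bind the neighbouring cell and catenins or plakins that bind the cytoskeleton. Connexins form gap junction channels between cells. Each nephron segment makes its own set of claudins, so a claudin gene can serve as a mark of a segment.

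Totals ran from 12877237 to 17061844 counts per library. Genes of the mitochondrial genome took 13.1 to 14.2% of the counts in sham and 68.9, 26.2 and 49.2% in IR24h libraries 1, 2 and 3. IR24h library 2 had the lowest share of the injured libraries. Its endothelial, distal convoluted tubule and adipocyte markers, given below, lay apart from those of IR24h libraries 1 and 3. Collecting duct markers were highest in library 3 and fibroblast markers in library 1. Library 2 was the lowest injured library in both of these lists. For some of the genes that library 2 moves, results without it are also given. All 7 proximal tubule markers, which mark the main cell type of the cortex, were detected, and their summed level was 10707 to 11623 CPM in sham and 1014, 2721 and 1483 CPM in IR24h libraries 1, 2 and 3. CPM are counts scaled to a common library size with TMM, the trimmed mean of M-values. Gene lengths, as count divided by FPKM implies them, differed between the groups for 13.1% of 12806 genes compared, among them 7 of 58 members. The way the authors made the values thus cannot be told apart from the surgery for those genes. Genes with fewer than 5 counts in any library were not compared. An equal implied length does not show that both groups were processed alike, so the other genes may be affected too.

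Of the 116 members, 64 passed the filter on low counts. The other 52 comprised 22 with 0 counts in all libraries, 1 without a sham value and 29 with too few counts. In the injured cortex 11 tested members were higher and 5 lower than in sham (edgeR quasi-likelihood test, Benjamini-Hochberg adjusted p under 0.05 over 13609 genes). Over all genes tested, 16.3% were called, 8.65% as higher and 7.62% as lower, against 17.2% and 7.81% of the tested members. The median log2 fold change was 0.10 over tested members and 0.05 over all tested genes. Among the higher genes were Cldn14, Cldn19, Cldn1, Cldn3, Cldn4, Cgn, Cdh6, Cdh24, Dsg2 and Pkp2, and the lower ones were Cldn6, Jam3, Cdh16, Ctnna2 and Gjb6. In a bulk sample, fewer cells of a type and less RNA per cell cannot be told apart.

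The 3 IR24h values lay above all 3 sham values in 18 tested members and below them in 8, while 38 overlapped. Among all tested genes the shares were 19.9% above and 21.7% below. Each of the 16 called members was free of overlap, and an exact permutation test of its log2 CPM (2-sided) gave p = 0.1, the minimum for groups of 3. Claudins had 5 higher and 1 lower of 16 tested, cadherins 2 and 1 of 10, and desmosomal genes 2 and 0 of 7. Connexins had 1 higher and 1 lower of 8, and the other tight junction genes 1 and 1 of 11. Of the 3 alpha and delta catenins tested 1 was lower, and of the 4 nectins and 5 Par genes none was called. The plot of log2 fold changes by family shows these values.

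**Figure D1:**
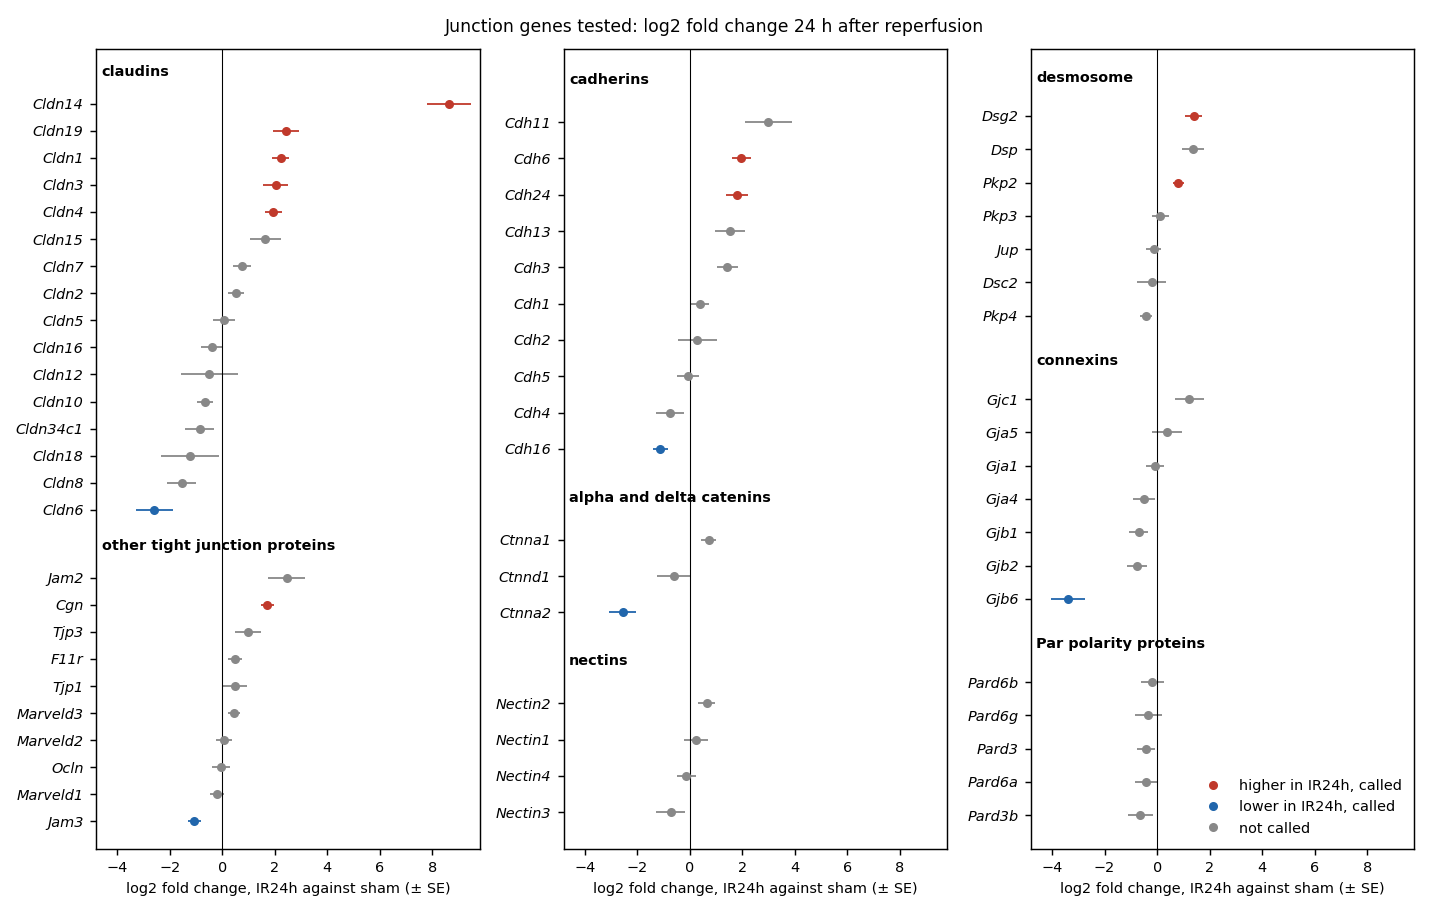
Log2 fold change of IR24h against sham (x axis, points with SE bars) for 62 of the 64 tested junction genes, by family. Red points are 10 genes called higher and blue points 5 called lower. Most points lie within 2 of the zero line, and Cldn14 lies farthest to the right. The Cldn14 value of 8.63 rests on a sham group with 0 counts and depends on the prior count of the fit.

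Of the 16 claudin genes tested Cldn14, Cldn19, Cldn1, Cldn3 and Cldn4 rose and Cldn6 fell, while the 3 leading claudins of sham cortex did not pass the test. Per gene length, the sham cortex held most Cldn10 (35.2 ± 0.450 FPKM, SD, n = 3), a channel-forming claudin. Cldn8, of the collecting duct, at 22.1 ± 2.78 FPKM and Cldn2, a cation channel of the proximal tubule, at 19.4 ± 4.81 FPKM followed, with overlapping ranges in sham. Cldn4 (9.76 ± 0.253 FPKM), Cldn3 (7.89 ± 2.14 FPKM) and Cldn5 (7.64 ± 0.466 FPKM) came next in sham, with Cldn3 overlapping both others. Within the IR24h libraries, whose FPKM were made differently and are not set against sham, the order was Cldn4 (31.0 ± 16.2 FPKM), Cldn2 (23.7 ± 15.2 FPKM), Cldn3 (23.5 ± 12.1 FPKM) and Cldn10 (17.99 ± 9.17 FPKM). The ranges of these 4 overlapped within IR24h.

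Cldn3 and Cldn4 encode claudins of the thin limb, the distal nephron and the collecting duct. Their genes lie side by side on chromosome 5 (GRCm38) with 39279 bases between them, Cldn4 at chr5:134945119-134946934 on the minus strand and Cldn3 at chr5:134986214-134987472 on the plus strand. Cldn4 (ENSMUSG00000047501) had 15.9, 16.0 and 16.2 CPM in sham against 40.6, 59.9 and 85.0 CPM after injury. The sham values were almost equal and every IR24h value was higher, with a fitted fold change of 3.86 (log2 fold change 1.95 ± 0.32 SE, edgeR adjusted p = 0.00926). Cldn3 (ENSMUSG00000070473) had 6.51, 8.61 and 12.0 CPM in sham against 39.9, 16.1 and 54.8 CPM after injury. IR24h library 2 was the lowest injured library and still above each sham library, with a fitted fold change of 4.07 (log2 fold change 2.03 ± 0.48 SE, edgeR adjusted p = 0.0296). Cldn1 (ENSMUSG00000022512, chr16:26356642-26371841, minus strand), which encodes a sealing claudin known in the kidney from the parietal cells of the glomerular capsule, had 12.1, 12.2 and 8.74 CPM in sham against 33.5, 63.9 and 57.0 CPM after injury. Here library 2 was the highest, with a fitted fold change of 4.67 (log2 fold change 2.22 ± 0.33 SE, edgeR adjusted p = 0.00655). The implied length of Cldn1 was shorter in IR24h by 1.19 on the log2 scale, so surgery and processing cannot be told apart in its fold change. The 3 parietal markers, of which Pax8 is also made by tubule cells, summed to 66.5 to 75.4 CPM in sham and 473, 275 and 444 CPM across the injured libraries, with 2 called higher and none at 0.

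The bases before the starts of these 3 genes are shown because each was called higher and 2 are neighbours. Their order across the injured libraries differed, with library 2 lowest for Cldn3, highest for Cldn1 and intermediate for Cldn4. Each line is the 250 bases upstream of the RefSeq start (GRCm38.p6), 5′ to 3′ on the gene's strand. Cldn4 is chr5:134946935-134947184 (minus strand), Cldn3 is chr5:134985964-134986213 (plus strand) and Cldn1 is chr16:26371840-26372089 (minus strand). Capitals mark the motif matches.
Cldn4: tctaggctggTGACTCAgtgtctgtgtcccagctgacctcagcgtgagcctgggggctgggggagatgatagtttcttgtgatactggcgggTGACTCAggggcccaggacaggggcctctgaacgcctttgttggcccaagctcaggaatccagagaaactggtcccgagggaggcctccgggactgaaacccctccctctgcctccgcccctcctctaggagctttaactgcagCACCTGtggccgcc
Cldn3: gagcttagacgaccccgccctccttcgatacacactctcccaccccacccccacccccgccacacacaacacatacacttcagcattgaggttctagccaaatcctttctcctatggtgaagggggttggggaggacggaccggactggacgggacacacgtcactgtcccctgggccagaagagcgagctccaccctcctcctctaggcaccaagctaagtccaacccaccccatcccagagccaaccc
Cldn1: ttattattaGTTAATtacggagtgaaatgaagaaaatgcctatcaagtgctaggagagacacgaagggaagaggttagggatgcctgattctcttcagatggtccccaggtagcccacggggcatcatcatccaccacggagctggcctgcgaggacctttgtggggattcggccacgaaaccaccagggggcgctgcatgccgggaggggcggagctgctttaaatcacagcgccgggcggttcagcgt
Exact letters were searched on both strands. AP-1 factors bind TGAGTCA, which reads TGACTCA on the other strand and so appears in the Cldn4 line. Snail proteins bind the E-box CAGGTG, which reads CACCTG there. The grainyhead type was searched as ACCGGT, a sequence equal to its own reverse complement. The HNF1 type was searched as GTTAAT, on either strand. The TEAD type was searched as GGAATG, again with its complement. No motif contains another, and no matches overlap in these windows. The Cldn4 window held AP-1 letters beginning 240 and 158 bases before the start and the E-box beginning 14 bases before it. The Cldn1 window held the HNF1-type letters 241 bases before the start, and the Cldn3 window held none of the 5. Over all 27025 genes with a promoter, AP-1 letters stood before 5.16%, the E-box before 19.4% and the HNF1-type letters before 7.49%. A promoter was found for 70 of the 116 members, 42 of them tested. Among those 42, 4 had AP-1 letters, 14 the E-box, 1 the grainyhead type, 6 the HNF1 type and 6 the TEAD type. Over all genes the grainyhead type stood before 2.13% and the TEAD type before 14.4%. A gene counted when any of its windows matched, and some genes have several. By window, the shares in tested members were 6.78% for AP-1, 25.4% for the E-box and 10.2% for the HNF1 type. Those in all promoters were 4.46%, 17.2% and 6.43%. The grainyhead and TEAD types stood in 1.69% and 10.2% of tested-member windows, against 1.86% and 12.6% of all windows. Of the members called higher, 8 had a promoter: 1 held AP-1 letters, 2 the E-box and 2 the HNF1 type. Neither grainyhead nor TEAD letters stood before any of the 8. Cdh24, Cdh6, Cgn, Cldn3 and Cldn19 held none of the 5 motifs. A match describes letters in a window and is not evidence of binding.

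Cldn14, Cldn16 and Cldn19 encode claudins of the thick ascending limb, where Cldn16 and Cldn19 form the cation path for calcium and magnesium and Cldn14 is known as its inhibitor. Cldn14 (ENSMUSG00000047109, chr16:93919031-94008837) had 0 counts in each sham library and 28, 54 and 31 counts across the injured libraries. Against a floor of 3 counts over the sham group it was at least 56.3-fold higher (edgeR adjusted p = 0.00432). Cldn19 (ENSMUSG00000066058, chr4:119255414-119262438) had 17.5, 13.5 and 22.3 CPM in sham against 134, 37.2 and 112 CPM after injury. Library 2 was the lowest injured library, and all 3 were above sham, with a fitted fold change of 5.32 (log2 fold change 2.41 ± 0.49 SE, edgeR adjusted p = 0.0186). Cldn16 had 7.19, 6.01 and 8.47 CPM in sham against 6.25, 2.96 and 7.34 CPM after injury. Its groups overlapped, with library 2 lowest, and it was not called (log2 fold change −0.40 ± 0.40 SE, adjusted p = 0.516). The 4 thick ascending limb markers, none at 0 and none called, summed to 1826 to 2554 CPM in sham and to 3231, 1561 and 5016 CPM across the injured libraries. Relative to the sham mean, log2 ratios in these libraries were 2.92, 1.07 and 2.66 for Cldn19 and 0.63, −0.42 and 1.26 for the summed markers.

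Of the claudins not called, Cldn8 had 49.96, 49.0 and 42.1 CPM in sham against 3.98, 22.5 and 21.1 CPM after injury. All 3 injured libraries were below sham, library 1 by most (log2 fold change −1.56 ± 0.56 SE, adjusted p = 0.0986), and it was called without IR24h 2 (log2 fold change −1.88, adjusted p = 0.0381) and without IR24h 1 (−1.11, adjusted p = 0.0375). The 6 collecting duct markers, none at 0 and 2 called lower, summed to 568 to 690 CPM in sham and 339, 225 and 712 CPM across the injured libraries. Cldn10 had 116, 114 and 124 CPM in sham against 51.1, 66.0 and 106 CPM after injury. It was likewise below sham in each injured library, library 3 by least (log2 fold change −0.67 ± 0.31 SE, adjusted p = 0.180). Cldn2 had 67.4, 89.2 and 57.9 CPM in sham against 74.3, 134 and 100.1 CPM after injury. Its groups overlapped (log2 fold change 0.52 ± 0.31 SE, adjusted p = 0.268), while the summed proximal tubule markers, 4 of 7 called lower and none at 0, stood at log2 ratios of −3.45, −2.03 and −2.90 to sham across the injured libraries. Cldn7, another claudin of the distal nephron and collecting duct, was at 13.4 ± 2.76 CPM in sham and 22.4 ± 8.94 CPM in IR24h (SD, n = 3, log2 fold change 0.74 ± 0.35 SE, adjusted p = 0.183). The 4 distal convoluted tubule markers, none at 0 and 2 called lower, summed to 1514 to 1849 CPM in sham and 183, 849 and 166 CPM across the injured libraries, below sham in all 3, and their part in the Cldn3, Cldn4 and Cldn7 values was not tested.

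Cldn12 had 41.6, 45.5 and 39.2 CPM in sham against 24.4, 64.0 and 0.524 CPM after injury. The injured libraries disagreed: library 2 was above sham with 1252 counts, and library 3 had 6 counts (log2 fold change −0.50 ± 1.09 SE, adjusted p = 0.775). Cldn6 (ENSMUSG00000023906, chr17:23679249-23682446), a claudin known from embryonic epithelium, had 1.26, 1.49 and 1.94 CPM in sham against 0, 0.256 and 0.437 CPM after injury. These are low values from 22 to 36 counts per sham library and 0 to 5 per injured library, all of them below sham, with a fitted level 6.00-fold lower (log2 fold change −2.59 ± 0.71 SE, edgeR adjusted p = 0.0470). Its neighbour Cldn9 lies 137 bases away and was not tested. Too low to test were also Cldn11, with 0, 1 and 0 counts in sham and 8, 17 and 7 across the injured libraries, and Cldn23, with 0, 0 and 1 against 3, 9 and 7.

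Cldn14 and Cldn1 were called whichever library was left out, Cldn1 at an adjusted p of 0.0441 to 0.0492 when it was a sham library, while the other 4 claudin calls ended with any sham library left out. Without sham 1, 2 or 3, the adjusted p of Cldn4 was 0.0597 to 0.0621, of Cldn3 0.0825 to 0.123, of Cldn19 0.0727 to 0.0927 and of Cldn6 0.135 to 0.169, so none of these 4 was called, nor were Cldn3, Cldn19 and Cldn6 without IR24h 1 or 3 (adjusted p 0.0528 to 0.0763). With library size as the only scaling, which moved the median of all genes to −0.39, Cldn1, Cldn3, Cldn4 and Cldn6 were not called (adjusted p 0.0549 to 0.0999), while Cldn14 and Cldn19 were. With library 2 as the only injured library, the log2 fold change was 1.08 for Cldn19 and 0.84 for Cldn3, which was then not called (adjusted p = 0.0963). Without a count filter Cldn6 was not called (adjusted p = 0.0644).

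**Figure D2:**
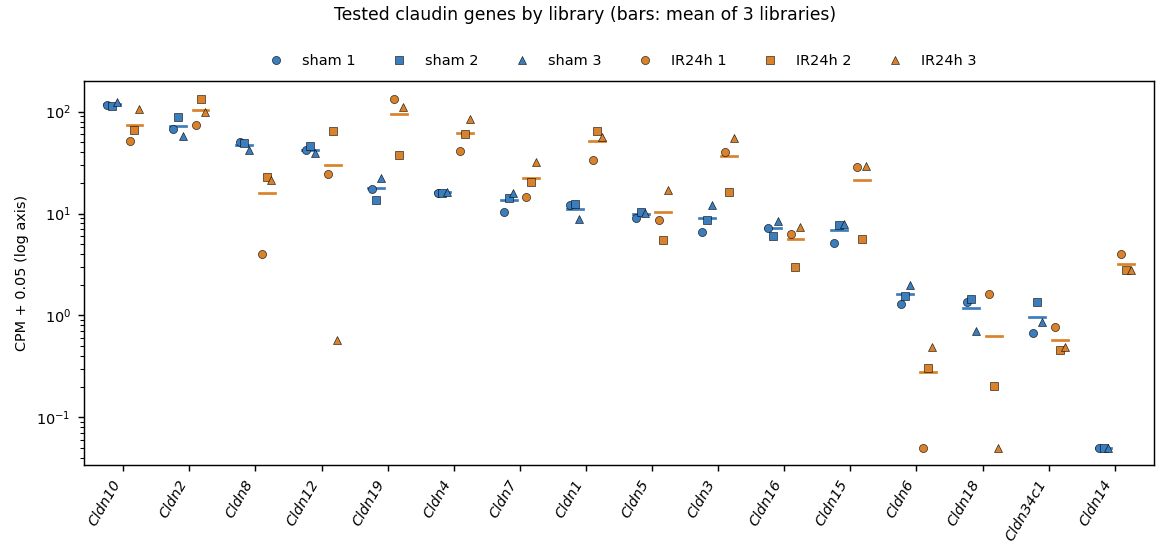
CPM of the 16 tested claudin genes in each library (y axis, log scale, 0.05 added so that 0 can be drawn), sham in blue and IR24h in orange, with the replicate number given by the marker shape and the group mean by a bar. Cldn14 is at the bottom in all sham libraries, and Cldn12 is split widely among the injured libraries.

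Among the other tight junction genes, the scaffold gene Cgn rose and the adhesion gene Jam3 fell, and the remaining 9 were not called. Cgn (ENSMUSG00000068876, chr3:94760069-94786492) encodes cingulin, which ties the tight junction to actin and myosin, and had 15.9, 15.3 and 15.3 CPM in sham against 56.7, 54.3 and 42.0 CPM after injury. Sham libraries lay close together and all injured libraries were well above them, with a fitted fold change of 3.29 (log2 fold change 1.72 ± 0.24 SE, edgeR adjusted p = 0.00552). Of its 50-base stretches 17.2% also occur in BC021767, and its implied length differed slightly between groups, by −0.03 on the log2 scale. Jam3 (ENSMUSG00000031990, chr9:27097384-27155421), a junctional adhesion molecule, had 26.6, 28.3 and 24.0 CPM in sham against 13.5, 9.61 and 14.8 CPM after injury. All injured values were below sham, with a fitted level 2.09-fold lower (log2 fold change −1.06 ± 0.27 SE, edgeR adjusted p = 0.0356). Gm48796 covers 36.2% of its exon bases on the opposite strand, and reads of the 2 genes cannot be told apart without strand, which the sources used here do not give.

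Tjp1, which encodes the main zonula occludens scaffold, had 46.0, 46.4 and 31.1 CPM in sham against 33.1, 100.2 and 37.8 CPM after injury. Only library 2 stood above the sham range (log2 fold change 0.47 ± 0.46 SE, adjusted p = 0.499), and without it the log2 fold change was −0.22. Ocln, which encodes occludin, was at 20.3 ± 3.35 CPM in sham and 19.6 ± 8.10 CPM in IR24h (SD, n = 3, log2 fold change −0.043 ± 0.34 SE, adjusted p = 0.941), and its fitted difference changed sign with the library left out. F11r, the leading member of this group per gene length in sham (21.9 ± 2.29 FPKM), was above sham in all injured libraries without being called (log2 fold change 0.48 ± 0.26 SE, adjusted p = 0.233). Jam2 had 3.997, 0.817 and 0.971 CPM in sham against 10.9, 5.83 and 14.9 CPM after injury, with the injured libraries above sham, a difference that was not called (log2 fold change 2.45 ± 0.69 SE, adjusted p = 0.0508) and an implied length that differed by −0.09. Leaving out sham 2 ended the Cgn call (adjusted p = 0.0531), and leaving out any sham library ended that of Jam3 (0.118 to 0.156). Leaving out IR24h 1 also ended the Jam3 call (0.0606), and library size scaling ended that of Cgn (0.105).

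Cadherin genes split, with the kidney's most abundant cadherin lower and 2 less abundant ones higher. Cdh16 encodes kidney-specific cadherin of the tubule's basolateral side and led the cadherins of sham cortex at 126 ± 6.82 FPKM (SD, n = 3), ahead of Cdh1, which encodes E-cadherin, at 30.4 ± 4.03 FPKM and of Cdh5 at 7.50 ± 1.07 FPKM. Cdh16 (ENSMUSG00000031881, chr8:104601911-104624396) had 799, 893 and 922 CPM in sham against 301, 463 and 432 CPM after injury. Library 1 was lowest and all injured values were below sham, with a fitted level 2.19-fold lower (log2 fold change −1.13 ± 0.28 SE, edgeR adjusted p = 0.0356). Cdh1 had 162, 157 and 134 CPM in sham against 121, 297 and 171 CPM after injury. Library 2 lay above sham and library 1 below it, so the groups overlapped (log2 fold change 0.38 ± 0.36 SE, adjusted p = 0.488), and without IR24h 2 the log2 fold change was −0.05. Cdh3, which encodes P-cadherin and lies 46053 bases from Cdh1 on chromosome 8, had 6.62, 6.49 and 6.53 CPM in sham against 9.23, 27.5 and 15.9 CPM after injury. Its 3 injured values were above sham, library 2 by most, and it was not called (log2 fold change 1.43 ± 0.41 SE, adjusted p = 0.0529).

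Cdh6 (ENSMUSG00000039385, chr15:13028701-13173675), a cadherin of the developing proximal tubule, had 3.37, 4.52 and 2.64 CPM in sham against 9.52, 18.1 and 13.5 CPM after injury. Every injured library was above sham, library 2 by most, with a fitted fold change of 3.91 (log2 fold change 1.97 ± 0.37 SE, edgeR adjusted p = 0.0141). Cdh24 (ENSMUSG00000059674, chr14:54631231-54641364) had 0.914, 1.39 and 0.755 CPM in sham against 3.27, 2.86 and 4.63 CPM after injury. These are 14 to 29 counts per sham library and 23 to 56 per injured library, without overlap, with a fitted fold change of 3.48 (log2 fold change 1.799 ± 0.43 SE, edgeR adjusted p = 0.0307). Cdh2, which encodes N-cadherin, had 6.00, 4.95 and 5.45 CPM in sham against 3.27, 14.9 and 1.49 CPM after injury. Library 2 alone was above sham and the other 2 injured libraries were below it (log2 fold change 0.29 ± 0.74 SE, adjusted p = 0.808), and without IR24h 2 it was called lower (log2 fold change −1.25, adjusted p = 0.0368). Cdh13, a cadherin anchored to the membrane by a lipid, had 2.68, 2.02 and 2.91 CPM in sham against 12.9, 2.56 and 6.73 CPM after injury. Library 2 fell within the sham range (log2 fold change 1.52 ± 0.58 SE, adjusted p = 0.110), and without it Cdh13 was called (log2 fold change 1.93, adjusted p = 0.00554). The calls of Cdh16, Cdh6 and Cdh24 ended without sham 1, 2 or 3 (adjusted p 0.130 to 0.152, 0.0559 to 0.0786 and 0.0911 to 0.144) and with library size scaling (0.111 to 0.143), and those of Cdh16 and Cdh24 also without IR24h 1 or 3 (0.0554 to 0.0784).

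Some cadherins and claudins are known from cells other than the tubule, and their levels are given here beside markers of those cells. Cdh11, a mesenchymal cadherin, had 4.63, 5.14 and 2.91 CPM in sham against 76.8, 4.60 and 20.7 CPM after injury. Libraries 1 and 3 were far above sham and library 2 within it (log2 fold change 3.00 ± 0.91 SE, adjusted p = 0.0618). The 5 fibroblast markers, 4 of them called higher and none at 0, summed to 85.8 to 99.9 CPM in sham and to 1567, 219 and 564 CPM across the injured libraries. Their log2 ratios to the sham mean were 4.06, 1.22 and 2.58, beside 4.18, 0.12 and 2.29 for Cdh11.

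Cdh5, which encodes the endothelial VE-cadherin, had 29.1, 32.9 and 26.2 CPM in sham against 33.2, 11.8 and 39.2 CPM after injury. Cldn5, the endothelial claudin, had 9.02, 10.2 and 10.1 CPM in sham against 8.52, 5.42 and 16.8 CPM after injury. Both were lowest in library 2 and highest in library 3, and neither was called (log2 fold change −0.070 ± 0.43 SE, adjusted p = 0.924 for Cdh5 and log2 fold change 0.061 ± 0.43 SE, adjusted p = 0.933 for Cldn5). The 6 endothelial markers, 1 called lower and none at 0, summed to 215 to 232 CPM in sham and 296, 59.1 and 260 CPM across the injured libraries. The part of cell composition in these values was not tested. The plot of these genes beside their marker lists shows the ratios library by library.

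**Figure D3:**
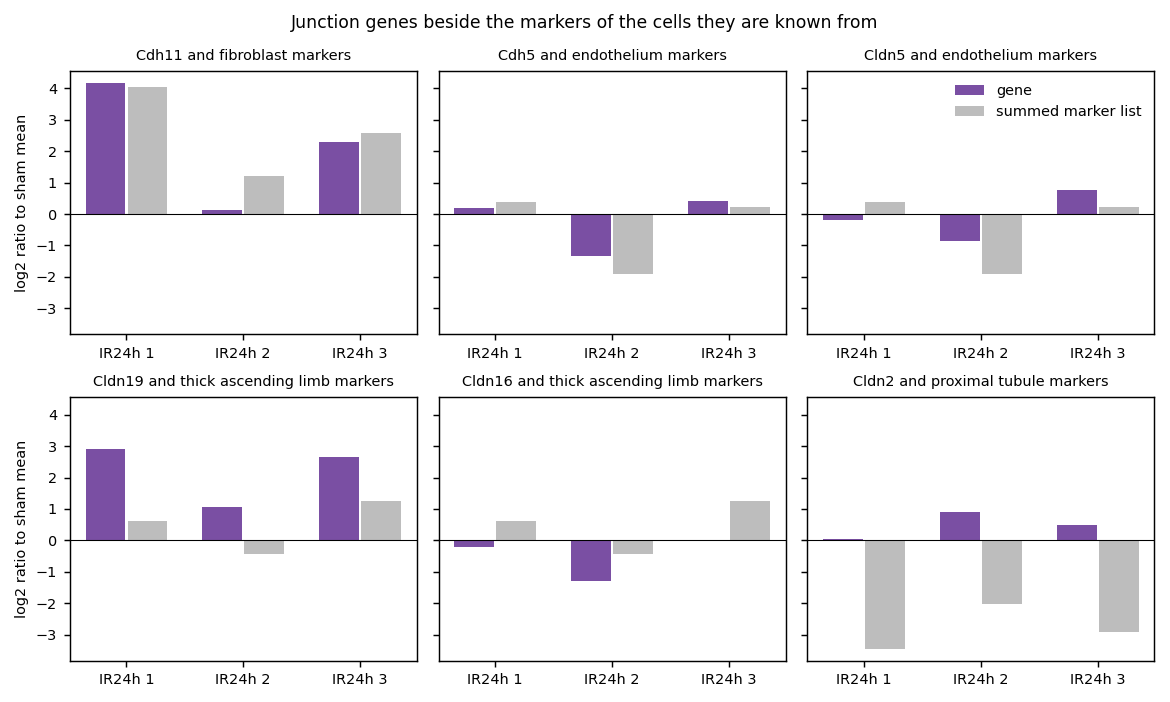
Log2 ratio to the sham mean (y axis) in each IR24h library (x axis) for 6 junction genes (purple) and for the summed markers of the cells they are known from (grey). Cdh11 and the fibroblast markers are highest in library 1 and lowest in library 2, and Cdh5, Cldn5 and the endothelial markers are lowest in library 2. The Cldn2 ratios are 0.06, 0.90 and 0.49, and the proximal tubule markers are below sham in all 3 libraries.

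Alpha and delta catenins link cadherins to actin and hold them at the membrane. Ctnna2 (ENSMUSG00000063063, chr6:76881637-77979699), the alpha catenin known from neurons, had 2.34, 1.88 and 3.40 CPM in sham against 0.710, 0.307 and 0.350 CPM after injury. All injured values were below sham, from 4 to 6 counts against 39 to 63, with a fitted level 5.89-fold lower (log2 fold change −2.56 ± 0.53 SE, edgeR adjusted p = 0.0191). Ctnna1, the epithelial alpha catenin, had 223, 220.4 and 233 CPM in sham against 265, 465 and 385 CPM after injury. Every injured library was above sham (log2 fold change 0.72 ± 0.28 SE, adjusted p = 0.122), with an implied length that differed by −1.21 on the log2 scale. Ctnnd1, a delta catenin that stabilises cadherins, had 139.9, 126 and 113 CPM in sham against 19.3, 152 and 76.9 CPM after injury. Its injured libraries ran from far below to just above sham (log2 fold change −0.61 ± 0.62 SE, adjusted p = 0.526), and 56.7% of its 50-base stretches also occur in Gm28635, so its counts are uncertain. The 3 neuron markers were too low to test, with sums of 0.288 to 0.701 CPM in sham and 1.85, 3.94 and 0.262 CPM across the injured libraries. The Ctnna2 call ended without sham 1, 2 or 3 (adjusted p 0.0725 to 0.1003) or IR24h 3 (0.0591).

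The 4 nectin genes, whose products start cell contacts before cadherins gather there, had log2 fold changes of −0.73 (Nectin3) to 0.65 (Nectin2), with overlapping groups in each. The 5 Par genes, which place the apical junction, had log2 fold changes of −0.63 to −0.18 and overlapping groups as well. Pard6b led them in sham at 16.2 ± 2.86 FPKM (SD, n = 3) and had 53.5, 54.0 and 41.4 CPM in sham against 22.6, 74.4 and 33.9 CPM after injury, with library 2 above sham and libraries 1 and 3 below it. Without IR24h 2, Pard6b and Pard3 were called lower (log2 fold changes −0.81 and −0.81, adjusted p = 0.0330 and 0.0267). With library 2 alone both were above sham (0.60 and 0.16). The implied length of Pard3 differed slightly between groups, by −0.02 on the log2 scale.

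Of the 7 desmosomal genes tested 2 rose and none was called lower. Dsg2 (ENSMUSG00000044393), which encodes the desmosomal cadherin of simple epithelia, had 5.94, 7.45 and 5.39 CPM in sham against 16.2, 21.0 and 12.1 CPM after injury. The injured values were all above sham, with a fitted fold change of 2.62 (log2 fold change 1.39 ± 0.31 SE, edgeR adjusted p = 0.0253). Pkp2 (ENSMUSG00000041957, chr16:16213318-16272712), a plaque protein of simple epithelia, had 28.3, 28.5 and 29.7 CPM in sham against 49.4, 55.8 and 46.2 CPM after injury. Both groups were narrow and apart, with a fitted fold change of 1.75 (log2 fold change 0.81 ± 0.22 SE, edgeR adjusted p = 0.0468). Dsp, which encodes desmoplakin, the link to keratin filaments, had 19.6, 20 and 20.2 CPM in sham against 24.1, 82.9 and 46.3 CPM after injury. All 3 injured libraries were above sham, but by amounts from small in library 1 to large in library 2 (log2 fold change 1.36 ± 0.43 SE, adjusted p = 0.0693), and it was called without IR24h 2 (log2 fold change 0.82, adjusted p = 0.0497) and without IR24h 1 (1.69, adjusted p = 0.0264). Jup, which encodes plakoglobin, was at 138 ± 13.9 CPM in sham and 126 ± 33.2 CPM in IR24h (SD, n = 3, log2 fold change −0.13 ± 0.28 SE, adjusted p = 0.776). Pkp4, the leading member of this family per gene length in sham (24.6 ± 1.40 FPKM), was below sham in all injured libraries but not called (log2 fold change −0.42 ± 0.23 SE, adjusted p = 0.239). Without sham 1, 2 or 3 the calls of Dsg2 (adjusted p 0.0925 to 0.122) and Pkp2 (0.164 to 0.206) ended, as they did without IR24h 1 (0.0528 and 0.0663) and with library size scaling (0.236 to 0.615). The Pkp2 call also ended without IR24h 3 (0.0570) and without a count filter (0.0791).

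Among the connexins Gjb6, of low level in sham, fell, and the main connexins of the cortex were not called. Gjb6 (ENSMUSG00000040055, chr14:57123303-57133611) had 2.06, 2.84 and 3.29 CPM in sham against 0.568, 0.204 and 0.0874 CPM after injury. All injured values, from 1 to 4 counts, were below sham, with 36 to 61 counts, with a fitted level 10.5-fold lower (log2 fold change −3.39 ± 0.64 SE, edgeR adjusted p = 0.0148). Gja3, 40499 bases from Gjb2 on the same chromosome, was not tested and had 7, 11 and 11 counts in sham and 0, 2 and 0 in IR24h. Gjb5, also too low to test, had 1, 0 and 0 counts in sham and 2, 11 and 50 across the injured libraries, highest in library 3. The 6 urothelial markers, of which 2 were tested and none called or at 0 throughout, summed to 1.31 to 4.69 CPM in sham and 2.56, 3.68 and 14.3 CPM across the injured libraries, also highest in library 3, and their part in the Gjb5 counts was not tested.

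Gjb2 and Gjb1, connexins known from the proximal tubule and the liver, led in sham at 53.0 ± 8.71 and 36.5 ± 3.70 FPKM (SD, n = 3). Gjb2, which lies 18600 bases from Gjb6, had 113, 132 and 101 CPM in sham against 40.3, 107 and 53.8 CPM after injury. Library 2 was within the sham range and libraries 1 and 3 below it (log2 fold change −0.78 ± 0.39 SE, adjusted p = 0.198). Gjb1 had 52.5, 51.4 and 65.6 CPM in sham against 29.0, 52.2 and 22.7 CPM after injury, in the same arrangement (log2 fold change −0.70 ± 0.35 SE, adjusted p = 0.199). Without IR24h 2 both were called lower, at log2 fold changes of −1.29 (adjusted p = 0.00383) for Gjb2 and −1.14 (adjusted p = 0.00590) for Gjb1. The connexins known from vessels had overlapping groups: Gja1 (log2 fold change −0.086 ± 0.34 SE, adjusted p = 0.880), Gja4 (log2 fold change −0.50 ± 0.42 SE, adjusted p = 0.440), Gja5 (log2 fold change 0.37 ± 0.56 SE, adjusted p = 0.670) and Gjc1 (log2 fold change 1.23 ± 0.55 SE, adjusted p = 0.160). Gjc1 was called higher without IR24h 2 (log2 fold change 1.63, adjusted p = 0.00904). Of the Gja5 50-base stretches 15.3% also occur in Zfp697. Without sham 1, 2 or 3 the Gjb6 call ended (adjusted p 0.0577 to 0.0786), and without IR24h 1 its log2 fold change was −4.07.

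**Figure D4:**
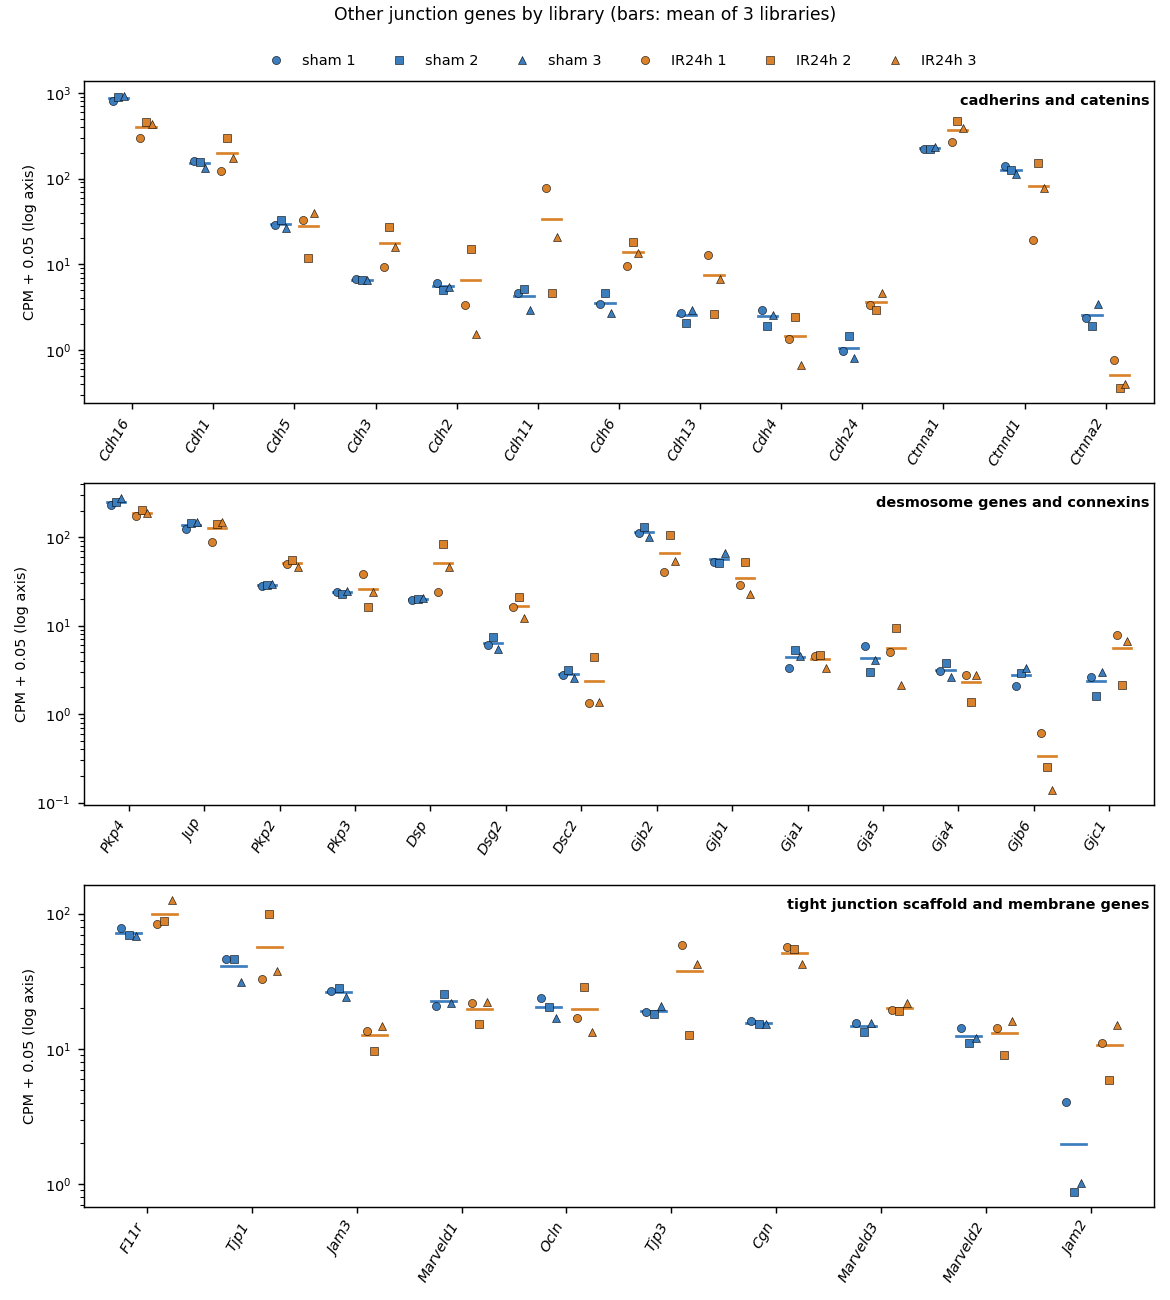
CPM of cadherin and catenin genes (top), desmosomal and connexin genes (middle) and tight junction scaffold and membrane genes (bottom) in each library (y axis, log scale, 0.05 added), drawn as for the claudins. Sham libraries lie close together for most genes, and IR24h library 2 (orange squares) is the highest injured library for 30 of the 64 tested members (46.9%), against 41.3% of all genes tested.

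A list of 50 further genes covered the same contacts, regulators of epithelial genes and brush border cadherin-related genes, and none was a member. Of its 46 tested genes 10 were higher (21.7%) and 2 lower (4.35%), with a median log2 fold change of 0.47. Over all genes tested the shares were 8.65% and 7.62% and the median 0.05. The regulators, 8 of them tested, gave 4 of the genes called higher and 1 of those called lower. The list was chosen with earlier results of these data known, so its shares are not evidence of an enrichment. Of the 3 plaque genes Ppl, which encodes the plakin periplakin, rose. Ppl had 1.66, 2.88 and 2.86 CPM in sham against 43.3, 45.0 and 42.7 CPM after injury. The injured values were almost equal and far above sham, with a fitted fold change of 17.6 (log2 fold change 4.14 ± 0.32 SE, edgeR adjusted p = 0.000861), though its implied length differed between the groups, as did those of Zeb2 and Ovol1 named below. Of the 8 adherens and actin link genes 3 rose, among them Vcl, which encodes vinculin, at 30.1 ± 5.39 CPM in sham and 113 ± 51.8 CPM in IR24h (SD, n = 3, log2 fold change 1.91 ± 0.38 SE, adjusted p = 0.0170). The others were Pdlim1 (log2 fold change 2.34 ± 0.54 SE, adjusted p = 0.0275) and Ctnnal1 (log2 fold change 1.14 ± 0.28 SE, adjusted p = 0.0337). Ctnnb1, which encodes beta-catenin, the partner of cadherins, was at 291 ± 94.7 CPM in sham and 187 ± 30.0 CPM in IR24h and was not called (log2 fold change −0.64 ± 0.32 SE, adjusted p = 0.205).

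Of 18 scaffold, tricellular and other adhesion genes only Lsr, which encodes angulin of the tricellular contact, was called, as higher (log2 fold change 1.05 ± 0.23 SE, adjusted p = 0.0248). Of 6 polarity genes only Prkcz, the atypical kinase that works with the Par proteins, was called. Prkcz had 87.8, 92.0 and 91.1 CPM in sham against 32.0, 33.3 and 33.8 CPM after injury. Both groups were narrow, with a fitted level 2.73-fold lower (log2 fold change −1.45 ± 0.22 SE, edgeR adjusted p = 0.00677). The single pannexin tested, Panx1, rose (log2 fold change 2.09 ± 0.38 SE, adjusted p = 0.0135). Among 8 tested regulators of epithelial genes 4 rose and 1 fell. The risers were the cadherin repressors Snai1 (log2 fold change 1.997 ± 0.49 SE, adjusted p = 0.0339) and Zeb2 (log2 fold change 1.46 ± 0.40 SE, adjusted p = 0.0466) and the epithelial activators Grhl1 (log2 fold change 2.09 ± 0.48 SE, adjusted p = 0.0265) and Grhl2 (log2 fold change 1.41 ± 0.35 SE, adjusted p = 0.0354), and Ovol1 fell (log2 fold change −1.25 ± 0.30 SE, adjusted p = 0.0307). Both brush border cadherin-related genes tested were not called. Without any 1 sham library only the Ppl call was kept in this list, and the adjusted p of the other 11 was then 0.0503 (Prkcz) to 0.167 (Zeb2). Leaving out IR24h 1, 2 or 3 left 6, 31 and 8 genes of the list called, of which 6, 12 and 7 were among the 12, and library size scaling left 3. Over all genes, the fit without IR24h 2 called 23.9% higher and 24.5% lower. Without IR24h 1 it was 842 higher and 709 lower of 13944 genes, and without IR24h 3 it was 813 and 749 of 13840.

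Leaving out IR24h 2 raised the number of called members from 16 to 38 (22 higher, 16 lower), beside 23.9% of all genes called higher and 24.5% lower in that fit, and all 16 were among the 38. Leaving out sham 1, 2 or 3 lowered it to 5, 3 and 4, of which 4, 3 and 4 were among the 16. Over all genes, these fits called 283 higher and 237 lower of 13941, 246 and 212 of 13854, and 292 and 196 of 13887. Library 2 was the highest of the 3 injured libraries for 30 of the 64 tested members (46.9%) and for 41.3% of all tested genes. The Cldn14 call was made in all 15 alternatives, as the plot of called genes by setting shows.

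**Figure D5:**
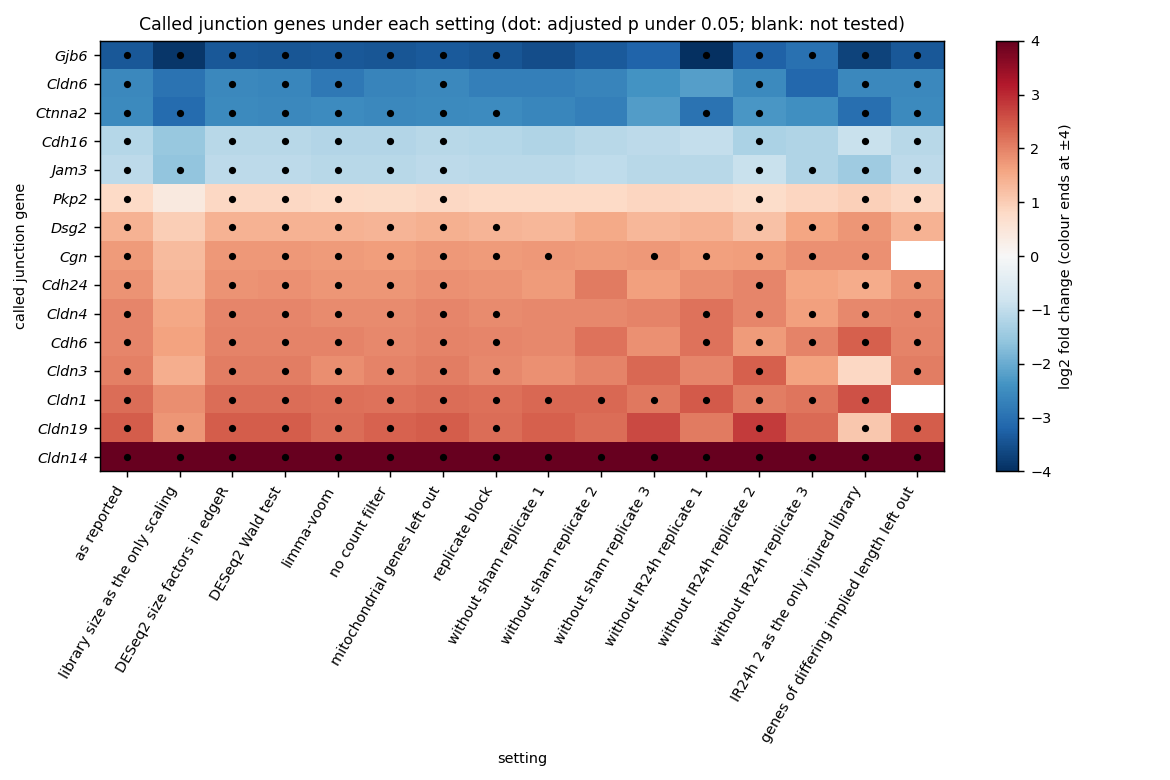
Log2 fold change (colour, ending at ±4) of 15 of the 16 called members (y axis) under each setting (x axis), with a dot where the adjusted p was under 0.05 and a blank where the gene was not tested. Directions are the same in all columns, and dots are missing most often where a sham library was left out or library size was the only scaling.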

How the data were processed

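RNA-seq of renal cortex was analysed in 3 sham and 3 IR24h libraries, grouped by their labelled treatment. The submitters' processing notes name CASAVA 1.8, TopHat2 2.0.6 and the builds mm10 and GRCh38, while all gene identifiers belong to the mouse. Neither the read counter nor the strandedness is stated in the sources used here. The authors deposited raw read counts per gene, per the file headers, and these whole numbers were tested. The deposited FPKM values were used only for levels between genes within a group and for the implied gene length (count over FPKM, compared at 5 or more counts with a tolerance of 0.01 on the log2 scale). Of 22040 genes listed, 83 had no sham value and were left out, and all 116 members matched GENCODE M21 (GRCm38), which gave coordinates. Library totals ran from 12877237 to 17061844 counts, and 3 libraries per group limit the precision.

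Counts were filtered with filterByExpr, which left 13609 genes, scaled by TMM and tested 2-sided with edgeR 4.0.16 (quasi-likelihood) in R 4.3.3, with Benjamini-Hochberg adjustment over all genes tested and calls at adjusted p under 0.05. Standard errors were derived from the F statistic. CPM use the TMM-scaled library sizes. The fit was checked on simulated counts. The common biological coefficient of variation was 0.394. Alternatives used DESeq2 1.42.0 and limma 3.58.1, other scalings and filters, a replicate block and leaving out each library. Exact permutation tests ran over 20 assignments. The floor for 0 counts was 3 counts over the group and covers counting error only. Overlap with other genes was measured as exon bases on the opposite strand and as 50-base stretches shared with other transcripts.

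The members and gene lists were chosen with earlier results of these data known. Named were the called members, members that mark segments or are core parts of a junction, Ctnnb1 and the called genes of the further list. A few members outside that rule (Cdh3, Cdh11, Jam2, Pkp4, Pard6b with its family, the nectins and the members with too few counts) were named after their values were seen. A few members count in the totals but are not reported here by name or drawn. Marker lists for 15 cell types and states were fixed, and those for cells that a named member is known from are printed. Promoter windows came from the RefSeq table (GRCm38.p6) and were cut to the 250 bases before the start, without the transcribed bases planned at first.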

Additional observations from a re-analysis of the deposited data

How the results depend on the processing

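Called directions held under every alternative in which they were tested (15, or 14 for Cldn1, Cgn, Ppl, Zeb2 and Ovol1, which 1 alternative leaves out) for the 16 called members and the 12 called genes of the further list, but few calls did. With library size as the only scaling, 1009 genes (398 higher, 611 lower), 6 members and 3 genes of the further list were called, and 39.4% of called genes were higher against 53.2% with TMM. DESeq2's Wald test called 3768 genes and 24 members. Leaving out 1 library gave 458 to 6679 called genes, 3 to 38 members and 1 to 31 genes of the further list, each highest without IR24h 2. Chosen after seeing the data, IR24h 2 as the only injured library (its spread taken from the sham libraries) gave 5439 genes, 33 members and 23 genes of the further list. Leaving out genes of differing implied length, also chosen after seeing the data, kept 14 member calls, since Cldn1 and Cgn were left out with them. Only 11 of the 16 called members had enough counts to compare the length, and 2 of these differed. Cldn14, Cldn6, Gjb6 and Ctnna2 were among those not compared, so their calls were kept without this check. The labels do not say whether library numbers pair sham with IR24h. Same-numbered libraries deviated together at r = −0.11, 0.12 and 0.23, which cannot decide this with 3 libraries per group. The replicate block called 12 members, 11 of them among the 16, and 5 genes of the further list. Over all 13609 genes it called 814 higher and 843 lower.

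Genes not called changed sign as follows, the values being log2 fold changes, and the cause was not tested. With IR24h 2 alone they were −0.84 for Cldn5, 0.62 for Cldn12, 0.52 for Ocln, 0.28 for Ctnnd1, 0.053 for Jup, 0.079 for Gja1, −0.14 for Gjc1, 0.16 for Pard3 and 0.60 for Pard6b. Cldn5 was at −0.46 with library size scaling, −0.14 with limma-voom and −0.088 with the replicate block, and Cdh2 at −0.17 with limma-voom and −0.35 with the block. Leaving out 1 library at a time gave −0.51 to 0.37 for Cldn5, −1.81 to 0.076 for Cldn12, −0.22 to 0.74 for Tjp1, −0.44 to 0.17 for Ocln, −0.051 to 0.63 for Cdh1, −1.25 to 0.76 for Cdh2, −0.40 to 0.30 for Cdh5, −0.26 to 0.070 for Jup, −0.26 to 0.063 for Gja1, −0.32 to 0.76 for Gja5 and −0.81 to 0.12 for Pard6b. Depth limits Cldn6, Cldn14, Gjb6 and Ctnna2, each with 0 to 6 counts in the libraries of 1 group.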

Other observations

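Ctnnd2, a delta catenin known from neurons, was too low to test and had 4, 2 and 0 counts in sham and 0, 17 and 1 in IR24h. Cldn15, tested but not called (log2 fold change 1.63 ± 0.60 SE, edgeR adjusted p = 0.0998), had 5.08, 7.64 and 7.77 CPM in sham and 28.8, 5.57 and 29.5 CPM across the injured libraries, so that library 2 lay within the sham range and the other injured libraries above it. Tjp3, which encodes a zonula occludens scaffold, had 18.6, 18.2 and 20.7 CPM in sham and 58.7, 12.6 and 42.4 CPM in IR24h, with library 2 below sham and the others above it. The 4 adipocyte markers, which did not pass the filter on low counts, summed to at most 0.108 CPM in sham and to 6.82, 70.3 and 0.961 CPM across the injured libraries, highest in library 2.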
